A study of Homo sapiens with 9 samples.

Results

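The genes described here are YAP1 and WWTR1, which encode the transcriptional coactivators YAP and TAZ, TEAD1, which encodes one of the DNA-binding proteins they act through, and 7 genes known as their targets or partners, namely CTGF, CYR61, ANKRD1, AMOTL1, AMOTL2, LATS2 and AJUBA. They were chosen by name, with earlier results of these data known, and make up 10 of the 26475 gene symbols of the deposited table. All 10 passed the filter on low counts that left 16417 genes for testing. The mRNA came from A375, an established line of human melanoma cells that carry mutant BRAF. Cells were treated for 24 h with the vehicle DMSO, with 5 µM TP-472 or with 10 µM TP-472, and 3 libraries were sequenced per group. TP-472 blocks the bromodomains of BRD9 and BRD7, subunits of chromatin remodelling complexes. All 3 groups share this 1 cell line, grown in serum-containing DMEM, and no other line or time point is analysed here. The question asked of these genes was how their mRNA levels differ between DMSO and each dose, and between the doses.

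In the Hippo pathway, the kinases STK3 and STK4 activate LATS1 and LATS2, which phosphorylate YAP and TAZ and so keep them in the cytoplasm. When the kinases are inactive, as on a stiff matrix or at low cell density, YAP and TAZ enter the nucleus, bind TEAD proteins and switch on genes such as CTGF, CYR61 and ANKRD1. Some of the targets, among them LATS2 and AMOTL2, encode inhibitors of YAP and TAZ and form a feedback loop. The mRNA of YAP1 or WWTR1 therefore says little by itself about how active the proteins are, and phosphorylation and localisation were not measured here.

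On build GRCh38 (GENCODE release 29), 3 of the genes lie on chromosome 11, namely YAP1 (chr11:102110461-102233423, plus strand), AMOTL1 (chr11:94706431-94876753, plus strand) and TEAD1 (chr11:12674591-12944483, plus strand). WWTR1 (chr3:149517235-149736714) and AMOTL2 (chr3:134355874-134375479) share chromosome 3, on the minus strand. CTGF lies at chr6:131948176-131951373 (minus strand), CYR61 at chr1:85580761-85583962 (plus strand) and ANKRD1 at chr10:90912096-90921276 (minus strand). LATS2 lies at chr13:20973032-21061547 and AJUBA at chr14:22971174-22982642, both on the minus strand.

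TEAD proteins bind the 6-base sequence GGAATG and its reverse complement CATTCC, so the promoters of the genes were searched for both. RefSeq promoters (build GRCh38.p14), taken as the 250 bases before the transcription start, were matched for 8 of the 10 genes, as 11 promoters. The promoters of TEAD1 and CYR61 were not matched. CTGF, listed by RefSeq under its newer symbol CCN2, had 3 copies and ANKRD1 had 2, all in the sense orientation and none overlapping another. YAP1 had 1 copy, AMOTL2 and AJUBA each had 1 copy at the second of their 2 promoters, and WWTR1, AMOTL1 and LATS2 had none in this window. Among all 34943 promoters of this length, 11.9% held at least 1 copy, 0.942% at least 2 and 0.083% at least 3. A match is a description of the sequence and does not show that a TEAD protein binds there. The 2 promoters with more than 1 copy are shown because both genes were higher at 10 µM TP-472, so this choice followed the result. Any part of the copies in the higher levels was not tested. Capitals mark the copies, whose first bases lie 169, 104 and 95 bases before the start in CTGF (chr6:131951373-131951622, minus strand) and 220 and 128 bases before it in ANKRD1 (chr10:90921088-90921337, minus strand).
CTGF promoter: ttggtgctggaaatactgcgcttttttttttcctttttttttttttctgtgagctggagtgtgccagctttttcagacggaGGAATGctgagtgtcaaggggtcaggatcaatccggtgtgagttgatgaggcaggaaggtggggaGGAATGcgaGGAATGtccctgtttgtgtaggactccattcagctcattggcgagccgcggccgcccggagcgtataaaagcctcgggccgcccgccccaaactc
ANKRD1 promoter: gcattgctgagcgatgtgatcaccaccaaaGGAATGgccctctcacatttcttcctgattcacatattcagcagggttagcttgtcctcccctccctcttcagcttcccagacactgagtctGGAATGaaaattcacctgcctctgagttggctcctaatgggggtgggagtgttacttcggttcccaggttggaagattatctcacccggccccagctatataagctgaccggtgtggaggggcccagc

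Each library held between 42483091 and 51298130 expected counts, and the 10 genes had between 454 (ANKRD1) and 31302 (WWTR1) of them in a single library. Levels are given as CPM (counts relative to the TMM-scaled library size), and means carry the SD over the 3 libraries of a group. SE is the standard error of a log2 fold change in the fit. A gene was called where the edgeR quasi-likelihood test gave a Benjamini-Hochberg adjusted p under 0.05 over all genes tested and the fold change was at least 1.5. In the bulk RNA used here, a lower level may stand for less RNA per cell or for fewer cells that express the gene, and these cannot be told apart. The library of 10 µM replicate 1 stood apart. Against the mean of the other 2 libraries of its group, its genes with at least 7.29 kb of exon had a median log2 difference of -0.33 and its genes with at most 2.98 kb of 0.33, whereas these medians lay between -0.02 and 0.03 in every DMSO and 5 µM library. Of the 10 genes, 6 had their lowest 10 µM value in this library. Values without it are given beside the results of the 10 genes that it moves most. Of the melanocyte lineage genes, SOX10 (363 to 426 CPM) and MITF (23.3 to 35.9 CPM) were expressed in all libraries, PMEL reached at most 2.87 CPM, MLANA at most 0.346 CPM and TYRP1 at most 0.865 CPM, DCT had counts in 1 library only and TYR was at 0 in all 9, so the pigment genes that define differentiated melanocytes were nearly absent. The summed level of these 7 genes was 439 to 457 CPM in the DMSO libraries, 440 to 452 at 5 µM and 393 to 438 at 10 µM. Of 8 markers of epithelial, immune, endothelial and fibroblast cells, CD68, a lysosomal protein gene of macrophages that many cultured lines also express, made up most of their sum (59.4 to 64.1 CPM in the DMSO libraries, 89.7 to 91.2 at 5 µM and 92.3 to 136 at 10 µM) and was called higher at 5 µM (log2 fold change 0.59, SE 0.13, adjusted p = 0.0187) and at 10 µM (0.91, SE 0.13, adjusted p = 0.000549). Its part in the results was not tested. The other 7 together lay at 5.41 to 6.24 CPM in the DMSO libraries, 6.20 to 6.57 at 5 µM and 5.22 to 6.65 at 10 µM.

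At 10 µM TP-472, 3 of the 10 genes were called higher than in DMSO and 2 were called lower. The higher genes were the secreted matricellular factors CTGF and CYR61 and the nuclear ankyrin repeat protein gene ANKRD1, the 3 genes most often used as a readout of YAP and TAZ. The lower genes were WWTR1 itself and AMOTL1, an angiomotin that binds YAP and TAZ. Over all genes tested, 8.57% were called higher and 10.5% lower in this comparison. At 5 µM only ANKRD1 was called, as higher, against 2.14% of all genes called higher and 2.72% called lower. The median log2 fold change of the 10 genes was 0.02 at 5 µM and 0.13 at 10 µM, beside 0.01 at either dose over all genes tested. The 3 DMSO libraries served as the reference for either dose, so these comparisons share them.

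**Figure D1:**
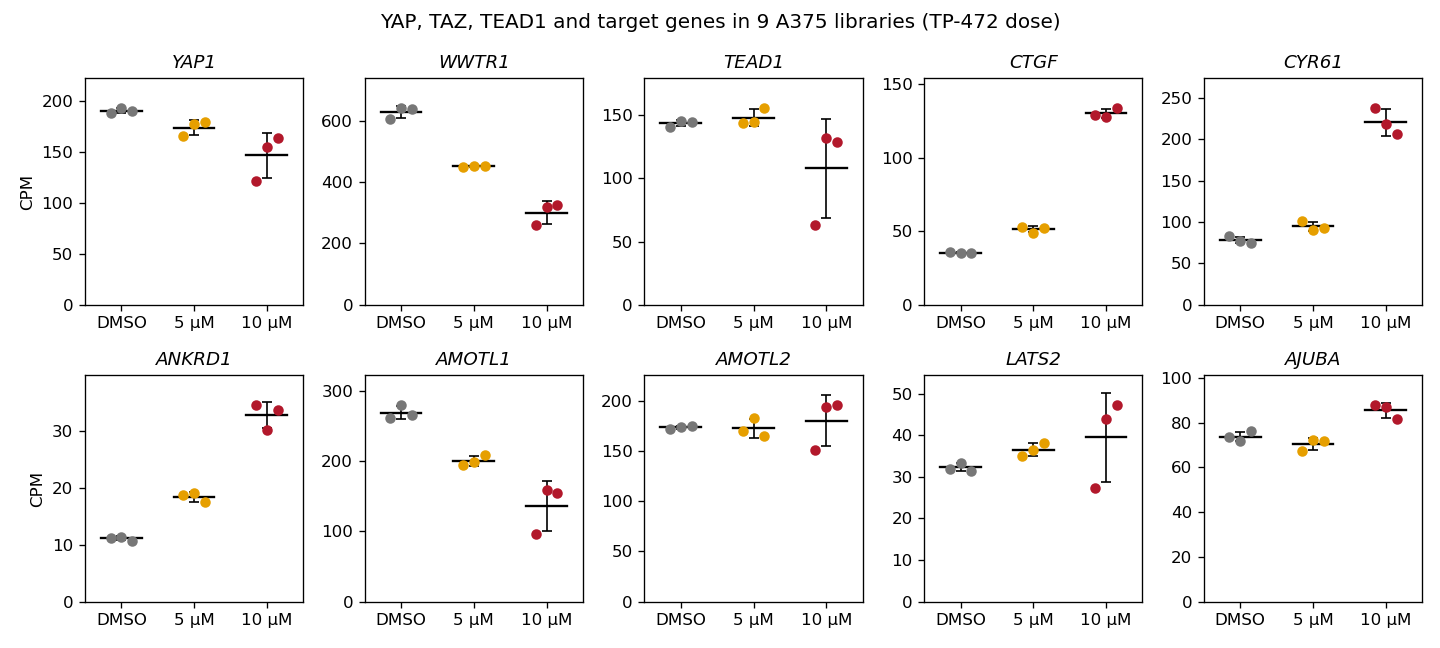
CPM of each of the 10 genes (vertical axis from 0) in the 3 DMSO, 3 5 µM and 3 10 µM libraries, with 1 point per library in the order of the replicate numbers, a bar at the mean and whiskers of 1 SD. CTGF, CYR61 and ANKRD1 are highest and WWTR1 and AMOTL1 lowest at 10 µM, and the first 10 µM point lies well below the other 2 for TEAD1, AMOTL1 and LATS2.

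Among the coactivators, WWTR1 was the more abundant and changed more. Its level was 608, 644 and 641 CPM in the 3 DMSO libraries, 452, 454 and 453 CPM at 5 µM and 259, 319 and 325 CPM at 10 µM. The 3 groups did not overlap, and each dose lay below the one before. Against DMSO, WWTR1 fell 2.1-fold at 10 µM, a log2 fold change of -1.07 (SE 0.09, adjusted p = 1.69e-05). At 5 µM it was -0.48 (SE 0.09, adjusted p = 0.00774), a 1.39-fold difference that passed the p threshold but not the fold limit. YAP1 stood at 188, 193 and 190 CPM in DMSO, 165, 177 and 179 CPM at 5 µM and 121, 155 and 163 CPM at 10 µM. All 3 libraries of either dose lay below DMSO, but by a smaller margin than for WWTR1. Its log2 fold change was -0.13 at 5 µM (SE 0.10, adjusted p = 0.514) and -0.38 at 10 µM (SE 0.10, adjusted p = 0.0187, 1.30-fold lower). YAP1 thus passed the p threshold at 10 µM without reaching the fold limit. The pass was lost with any 1 DMSO library left out (adjusted p from 0.0523 to 0.0646) and with 5 µM left out of the fit (adjusted p = 0.0566). Its log2 fold change without 10 µM replicate 1 was -0.26 at 10 µM (adjusted p = 0.000154) and -0.13 at 5 µM (adjusted p = 0.0178). Over all genes tested, 34.3% passed the p threshold at 10 µM and 10.2% at 5 µM. On the annotation used here, 9.97% of the exon length of YAP1 and 9.45% of that of WWTR1 overlaps an antisense gene, and the libraries kept strand, but no source used here says whether reads were counted by it.

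The ratio of WWTR1 to YAP1 counts within a library depends on no scaling between libraries. It was 3.24, 3.34 and 3.38 in DMSO, 2.74, 2.57 and 2.53 at 5 µM and 2.14, 2.06 and 1.99 at 10 µM. The groups did not overlap, and 10 µM replicate 1 lay near the other 2 libraries of its group. The mean ratio was 3.32 ± 0.0694 in DMSO, 2.61 ± 0.113 at 5 µM and 2.07 ± 0.0753 at 10 µM. The mRNA of TAZ was thus lower relative to that of YAP at each dose, by differences larger than the spread between libraries, for which no test was run.

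TEAD1, the DNA-binding partner, had 141, 146 and 145 CPM in DMSO, 144, 145 and 156 CPM at 5 µM and 63.0, 132 and 129 CPM at 10 µM. DMSO and 5 µM overlapped, and 10 µM replicate 1 lay far below all other libraries. At 10 µM its log2 fold change was -0.41 (SE 0.22, adjusted p = 0.180) with all libraries and -0.14 (adjusted p = 0.0159) without 10 µM replicate 1. TEAD1 has 10.28 kb of exon, the longest of the 10 genes. The part of this library's length trend in the value was not tested, and most of the difference was absent without the library.

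CTGF, also known as CCN2, encodes a secreted factor that binds matrix proteins and growth factors. It was the most changed of the 10 genes, with 35.7, 34.9 and 35.4 CPM in DMSO, 52.9, 48.9 and 52.1 CPM at 5 µM and 129, 128 and 134 CPM at 10 µM. The groups lay far apart, and 10 µM replicate 1 did not differ from its group. At 10 µM the log2 fold change was 1.88 (SE 0.07, adjusted p = 1.41e-07), a 3.69-fold rise larger than that of 97.6% of all genes tested. At 5 µM the difference was 1.45-fold (log2 fold change 0.54, SE 0.07, adjusted p = 0.00101), just under the fold limit. Of its exon length, 8.34% overlaps an antisense gene.

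CYR61, or CCN1, encodes a closely related matricellular protein that signals through integrins. Its level was 82.6, 77.5 and 74.6 CPM in DMSO, 101, 90.4 and 92.6 CPM at 5 µM and 238, 218 and 206 CPM at 10 µM. Every 5 µM library lay above every DMSO library, but the gap at 5 µM was small beside that at 10 µM. CYR61 had a log2 fold change of 1.5 at 10 µM (SE 0.08, adjusted p = 1.44e-06, 2.82-fold) and 0.27 at 5 µM (SE 0.08, adjusted p = 0.0621, 1.21-fold). At the lower dose CYR61 therefore did not pass either limit, although without 10 µM replicate 1 in the fit its adjusted p at 5 µM was 0.000626 at the same log2 fold change of 0.27. Its counts stayed above those of CTGF in every library, and the ratio of CTGF to CYR61 counts was 0.452 ± 0.0217 in DMSO, 0.543 ± 0.0188 at 5 µM and 0.593 ± 0.0522 at 10 µM. The ratio was higher at either dose than in DMSO, and its values at 5 µM and 10 µM overlapped.

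ANKRD1 encodes a cardiac and stress-responsive ankyrin repeat protein and was the least abundant of the 3 genes. It had 11.2, 11.4 and 10.7 CPM in DMSO, 18.7, 19.0 and 17.4 CPM at 5 µM and 34.5, 30.1 and 33.6 CPM at 10 µM. No groups overlapped, and ANKRD1 was the gene of the 10 called at both doses. It rose by a log2 fold change of 0.73 at 5 µM (SE 0.09, adjusted p = 0.000839, 1.65-fold) and 1.56 at 10 µM (SE 0.09, adjusted p = 1.55e-06, 2.94-fold).

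**Figure D2:**
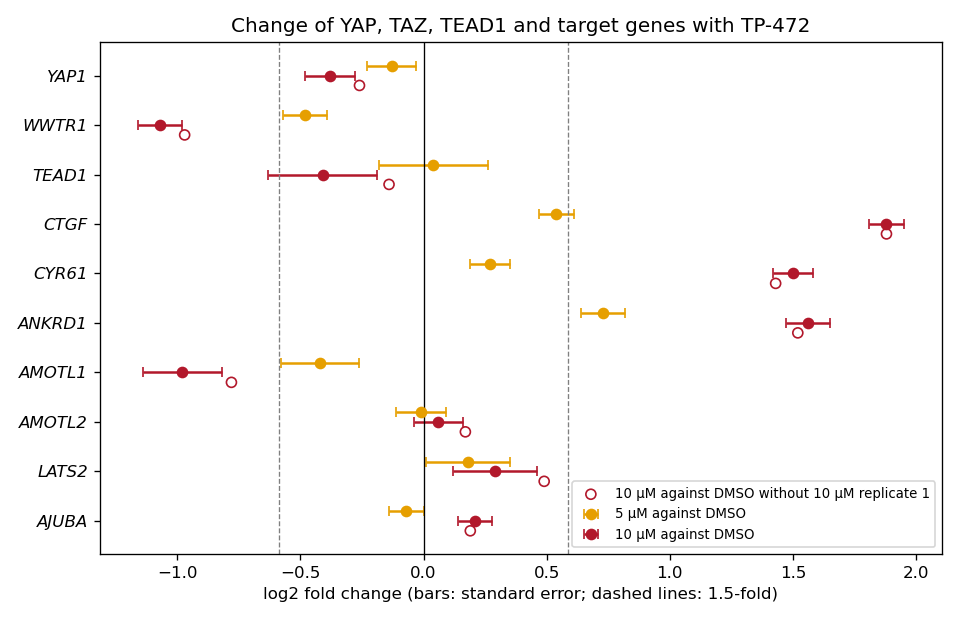
Log2 fold change against DMSO (horizontal axis) of each of the 10 genes at 5 µM and 10 µM, in the colours of the legend, with bars of 1 standard error, and at 10 µM without 10 µM replicate 1 (open circles). Dashed lines mark the 1.5-fold limit, past which CTGF, CYR61 and ANKRD1 lie to the right and WWTR1 and AMOTL1 to the left at 10 µM, with or without that library.

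AMOTL1 and AMOTL2 encode angiomotin-like scaffold proteins that hold YAP and TAZ at cell junctions and on actin. AMOTL1 had 262, 280 and 265 CPM in DMSO, 194, 199 and 208 CPM at 5 µM and 95.8, 159 and 154 CPM at 10 µM. Both doses lay below DMSO without overlap, and 10 µM replicate 1 was again the lowest library. AMOTL1 had a log2 fold change of -0.42 at 5 µM (SE 0.16, adjusted p = 0.129) and -0.98 at 10 µM (SE 0.16, adjusted p = 0.00122, 1.97-fold lower). Without 10 µM replicate 1 it was -0.42 at 5 µM (adjusted p = 5.78e-07) and -0.78 at 10 µM (adjusted p = 8.44e-10), so the call at 10 µM held. AMOTL1 has 10.04 kb of exon, of which 4.94% overlaps an antisense gene.

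AMOTL2, in contrast, kept a similar level in most libraries, with 172, 174 and 175 CPM in DMSO, 170, 183 and 165 CPM at 5 µM and 151, 194 and 196 CPM at 10 µM. The groups overlapped. Its log2 fold change was -0.01 at 5 µM (SE 0.10, adjusted p = 0.972) and 0.06 at 10 µM (SE 0.10, adjusted p = 0.710). Without 10 µM replicate 1 the value at 10 µM was 0.17 (adjusted p = 0.00541), still under the fold limit. A ribosomal protein pseudogene on the same strand covers 3.12% of its exon length. AMOT, the third angiomotin, had a mean of 32.0 ± 2.34 CPM with DMSO and fell to 14.4 ± 1.69 CPM at 10 µM, a log2 fold change of -1.15 (SE 0.13, adjusted p = 0.000118), and its value at 5 µM was -0.51 (SE 0.13, adjusted p = 0.0316). Within this family AMOT and AMOTL1 were thus called lower at 10 µM and AMOTL2 was not called.

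Because CTGF, CYR61 and AMOTL2 are all known YAP and TAZ targets, their ratios within a library were compared too. The ratio of CTGF to AMOTL2 counts was 0.207, 0.201 and 0.203 in DMSO, 0.312, 0.268 and 0.316 at 5 µM and 0.855, 0.660 and 0.680 at 10 µM. That of CYR61 to AMOTL2 was 0.479, 0.446 and 0.427 in DMSO, 0.593, 0.495 and 0.562 at 5 µM and 1.57, 1.12 and 1.05 at 10 µM. Both ratios were higher in all 10 µM libraries than in any other, so the targets changed unequally whatever the scaling. A ratio does not remove a length trend such as that of 10 µM replicate 1, where both ratios were highest. AMOTL2 has 5.98 kb of exon against 2.34 kb for CTGF and 2.46 kb for CYR61, and the part of length in the ratios was not tested.

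**Figure D3:**
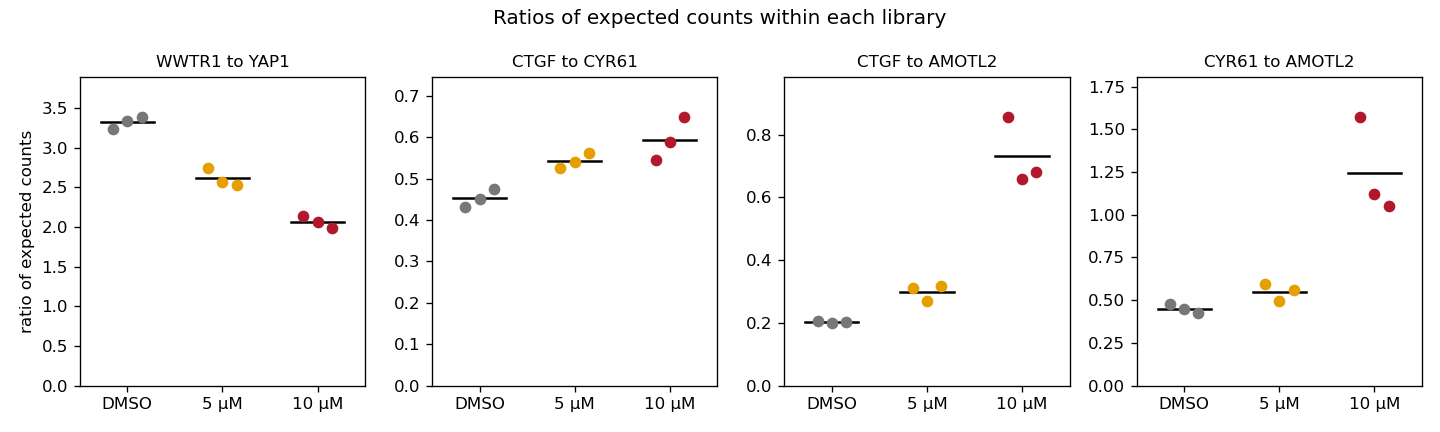
Ratio of the expected counts of 2 genes within each library (vertical axes from 0), by dose, with 1 point per library in the order of the replicate numbers and a bar at the mean. The WWTR1 to YAP1 ratio is lowest at 10 µM, and the CTGF to AMOTL2 and CYR61 to AMOTL2 ratios are highest at 10 µM, most of all in replicate 1.

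LATS2, the Hippo kinase that is itself a YAP target, had 32.0, 33.4 and 31.5 CPM in DMSO, 35.1, 36.5 and 38.1 CPM at 5 µM and 27.3, 43.8 and 47.3 CPM at 10 µM. The 10 µM libraries fell on both sides of DMSO, with replicate 1 below all others and replicates 2 and 3 above all others. LATS2 had a log2 fold change at 10 µM of 0.29 (SE 0.17, adjusted p = 0.218) with all libraries and 0.49 (adjusted p = 1.35e-05) without replicate 1, which did not reach the fold limit. At 5 µM it was 0.18 (SE 0.17, adjusted p = 0.593), and its adjusted p was 0.0298 at the same value without 10 µM replicate 1. AJUBA, a LIM domain protein gene whose product binds and restrains LATS kinases, had 73.5, 71.7 and 76.1 CPM in DMSO, 67.1, 72.0 and 71.9 CPM at 5 µM and 87.9, 86.8 and 81.6 CPM at 10 µM. DMSO and 5 µM overlapped, and 10 µM lay above both. Its log2 fold change was -0.07 at 5 µM (SE 0.07, adjusted p = 0.638) and 0.21 at 10 µM (SE 0.07, adjusted p = 0.0396, 1.16-fold), past the p threshold only. With each library left out in turn, the adjusted p of AJUBA at 10 µM lay between 0.00796 (without 10 µM replicate 1) and 0.163 (without DMSO replicate 2).

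The 6 genes with the lowest value at 10 µM in replicate 1 were TEAD1, LATS2, AMOTL1, YAP1, AMOTL2 and WWTR1, with log2 gaps to the mean of the other 2 libraries of -1.05, -0.74, -0.71, -0.39, -0.37 and -0.31. These genes have between 5.58 and 10.28 kb of exon. ANKRD1, CTGF and CYR61, with 1.98, 2.34 and 2.46 kb, had gaps of 0.12, -0.02 and 0.17, and AJUBA, with 5.98 kb, of 0.06. The 3 genes called higher at 10 µM are thus the 3 shortest of the 10, and the 2 called lower are among the 3 longest. Each of these 5 calls was also made with replicate 1 left out, and the part of transcript length in the changes was otherwise not tested.

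**Figure D4:**
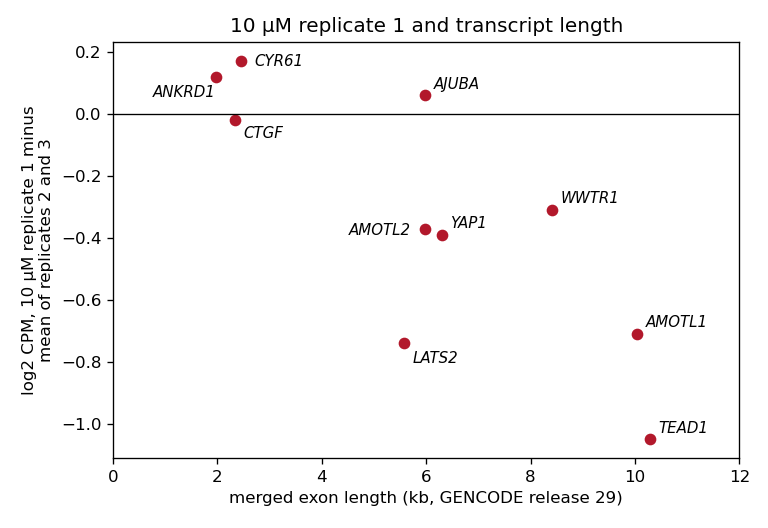
Log2 CPM of 10 µM replicate 1 minus the mean of replicates 2 and 3 (vertical axis) against merged exon length in kb (horizontal axis) for the 10 genes, 1 point per gene. CTGF, CYR61 and ANKRD1 lie near 0 on the left, and TEAD1, at 10.28 kb, lies lowest at -1.05.

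In the direct comparison, 10 µM gave higher levels than 5 µM for CTGF, CYR61 and ANKRD1 and a lower level for WWTR1, against 1.42% of all genes called higher and 2.59% called lower. Relative to 5 µM, the log2 fold change was 1.34 for CTGF (SE 0.07, adjusted p = 1.44e-05), 1.22 for CYR61 (SE 0.08, adjusted p = 5.26e-05) and 0.83 for ANKRD1 (SE 0.09, adjusted p = 0.000467). That of WWTR1 was -0.59 (SE 0.09, adjusted p = 0.00334), which lies at the fold limit, and the call was not made without 10 µM replicate 1 (-0.49) or under 4 other settings (-0.58 to -0.57). AMOTL1 had -0.56 (SE 0.16, adjusted p = 0.0605) and AJUBA 0.28 (SE 0.07, adjusted p = 0.0369), where 8.40% of all genes passed the p threshold. AMOTL1 was called without 10 µM replicate 2 (-0.69, adjusted p = 0.0386) and had -0.36 (adjusted p = 2.13e-05) without 10 µM replicate 1. The remaining genes had -0.25 (YAP1, adjusted p = 0.174), -0.46 (TEAD1, adjusted p = 0.236), 0.07 (AMOTL2, adjusted p = 0.732) and 0.11 (LATS2, adjusted p = 0.732). All 4 passed the p threshold but not the fold limit with 10 µM replicate 1 left out, at -0.13 (YAP1, adjusted p = 0.0434), -0.18 (TEAD1, adjusted p = 0.0077), 0.18 (AMOTL2, adjusted p = 0.00852) and 0.31 (LATS2, adjusted p = 0.00242). The share of all genes that passed the p threshold in that fit was not counted, so these 4 have no background to be set beside. LATS2 had -0.04 without 10 µM replicate 3. Of the log2 change reached at 10 µM, 5 µM gave 18.3% for CYR61, 28.6% for CTGF, 43.2% for AMOTL1, 44.8% for WWTR1 and 46.6% for ANKRD1. These shares have no test.

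Per kb of exon, WWTR1 was the most abundant of the 10 genes in DMSO, at 75 ± 2.34 CPM per kb, above 97.2% of the 15273 tested genes of known length. CYR61 (31.9 ± 1.66), YAP1 (30.2 ± 0.446), AMOTL2 (29 ± 0.191) and AMOTL1 (26.8 ± 0.965) followed, of which CYR61 and YAP1 overlapped. CTGF (15.1 ± 0.156), TEAD1 (14.0 ± 0.291) and AJUBA (12.3 ± 0.371) came next without overlap, and LATS2 (5.79 ± 0.175) and ANKRD1 (5.62 ± 0.173), which overlapped, were the lowest. At 5 µM the order began with WWTR1 (53.8 ± 0.0984) and CYR61 (38.5 ± 2.22), AMOTL2 (28.8 ± 1.54) and YAP1 (27.6 ± 1.2) overlapped, and LATS2 (6.56 ± 0.269) was last. At 10 µM the order had changed, with CYR61 at 89.8 ± 6.52 and CTGF at 55.7 ± 1.24 CPM per kb above WWTR1 at 35.8 ± 4.31, AMOTL2 at 30.2 ± 4.25 and YAP1 at 23.2 ± 3.54, where WWTR1 overlapped AMOTL2 and AMOTL2 overlapped YAP1. ANKRD1 had moved from last to sixth at 16.5 ± 1.17, while AJUBA (14.3 ± 0.564), AMOTL1 (13.6 ± 3.50), TEAD1 (10.5 ± 3.80) and LATS2 (7.07 ± 1.91) each overlapped with the next. Merged exon length counts every annotated exon, so genes with many isoforms are placed lower than their main transcript would be.

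A 22-gene target signature written from general knowledge holds 5 of the genes above and 17 others, all 17 of them tested. At 10 µM, 2 of the 17 were called higher and 2 lower, and 13 were not called, shares near the 8.57% and 10.5% of all genes. The log2 fold change was below 0 for 14 of the 17 and above 0 for 3, with a median of -0.39 beside 0.01 over all genes. Another 6 genes passed the p threshold only, and all were below 0. Over all genes, 34.3% passed it at any fold in either direction. That share includes called genes, so it compares with these 6 together with the 2 called higher and 2 called lower. These values include 10 µM replicate 1, and the median was not computed without it. Beyond the counts below and the changes of sign listed at the end, the part of this library in the values was not tested. At 5 µM, 1 was called higher and 1 lower, beside 2.14% and 2.72% of all genes, and again 14 values were below 0 and 3 above, with a median of -0.18. Without 10 µM replicate 1 the counts of this signature were 2 higher and 2 lower at 10 µM and 1 and 1 at 5 µM. GADD45A, a stress response gene also activated by p53, had means of 33.3 ± 2.66 CPM (DMSO), 99.4 ± 5.08 CPM (5 µM) and 247 ± 33.1 CPM (10 µM), and its rise at 10 µM was 2.89 on the log2 scale (SE 0.11, adjusted p = 1.75e-07). NUAK2, a kinase gene of the AMPK family, rose from 8.01 ± 0.798 to 14.5 ± 2.32 CPM at 10 µM (log2 fold change 0.85, SE 0.16, adjusted p = 0.00254). IGFBP3, which encodes a binding protein of insulin-like growth factors, had means of 382 ± 6.21 CPM (DMSO), 191 ± 7.87 CPM (5 µM) and 81.6 ± 12.9 CPM (10 µM) and fell at both doses (log2 fold change -2.23 at the higher, SE 0.11, adjusted p = 6.93e-07). ARHGEF17 fell from 15.9 ± 0.438 to 8.06 ± 1.70 CPM at 10 µM (log2 fold change -0.98, SE 0.15, adjusted p = 0.000706). The 2 genes with the largest changes of the signature thus went in opposite directions.

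Of the other TEAD and VGLL genes, 6 of 7 were tested. At 10 µM 1 of them was called, as lower, beside 8.57% of all genes called higher and 10.5% called lower. TEAD2 had 19.1, 20.2 and 18.6 CPM in DMSO, 13.1, 14.0 and 13.4 CPM at 5 µM and 11, 11.4 and 8.11 CPM at 10 µM. The groups did not overlap, and the log2 fold change was -0.52 at 5 µM (SE 0.13, adjusted p = 0.0316) and -0.92 at 10 µM (SE 0.13, adjusted p = 0.000483). TEAD3 and TEAD4 had log2 fold changes at 10 µM of -0.11 (adjusted p = 0.497) and 0.02 (adjusted p = 0.887), and that of TEAD4 was -0.06 without 10 µM replicate 1. VGLL4, a TEAD-binding repressor, had -0.25 (adjusted p = 0.0360), and VGLL2 and VGLL3, at most 2.23 and 6.86 CPM, had 0.44 (adjusted p = 0.210) and 0.31 (adjusted p = 0.280). VGLL1 had counts in 1 library only and was not tested.

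All 22 genes of the list of Hippo kinases and upstream regulators were tested. At 10 µM, 2 were called higher and 3 lower, shares near the 8.57% and 10.5% of all genes, with 11 log2 fold changes above 0, 11 below and a median of -0.03. At 5 µM, 1 was higher and 1 lower, beside 2.14% and 2.72% of all genes. The core kinases had small differences at 10 µM, with log2 fold changes of 0.03 for STK3 (adjusted p = 0.821), -0.08 for STK4 (adjusted p = 0.726) and -0.19 for LATS1 (adjusted p = 0.489). Those of STK4 and LATS1 were 0.11 and 0.04 without 10 µM replicate 1. WWC1, or KIBRA, an upstream activator of LATS kinases, had means of 13.2 ± 0.685 CPM (DMSO), 21.9 ± 1.36 CPM (5 µM) and 23.5 ± 4.67 CPM (10 µM) and rose at both doses (log2 fold change 0.83 at the higher, SE 0.14, adjusted p = 0.00135). DCHS1, a protocadherin that is a ligand of FAT4, fell at both doses, with means of 3.34 ± 0.404 CPM (DMSO), 1.2 ± 0.383 CPM (5 µM) and 0.831 ± 0.220 CPM (10 µM). Its log2 fold change was -1.47 at 5 µM (SE 0.32, adjusted p = 0.0167) and -2.00 at 10 µM (SE 0.32, adjusted p = 0.00118). RASSF1 was called higher (0.69, SE 0.14, adjusted p = 0.00344) and MAP4K4, a kinase that phosphorylates LATS, lower (-0.60, SE 0.09, adjusted p = 0.000888). Without 10 µM replicate 1, RASSF1 (0.55) and MAP4K4 (-0.50) fell under the fold limit, and the atypical cadherin gene FAT1, picked out once its values had been seen, had a log2 fold change of 0.85 (adjusted p = 9.35e-11) against 0.53 (adjusted p = 0.166) with all libraries.

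**Figure D5:**
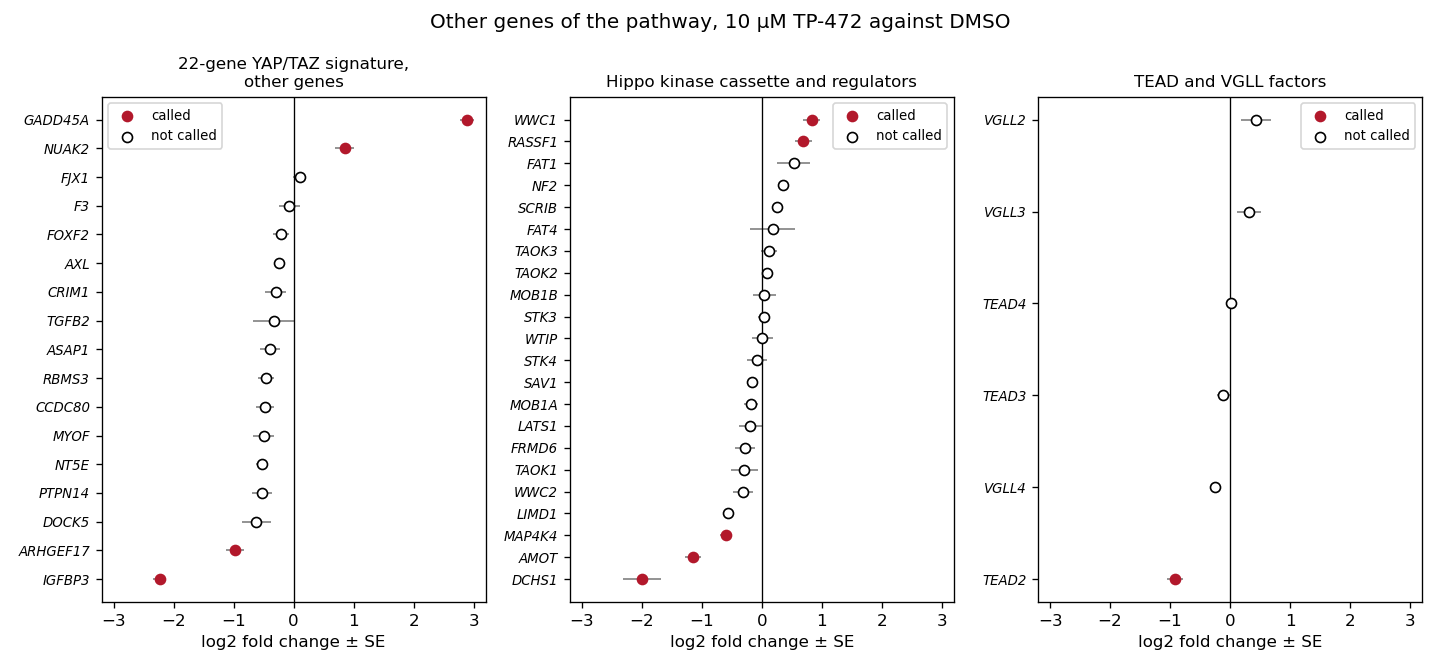
Log2 fold change at 10 µM TP-472 against DMSO (horizontal axis, bars of 1 standard error) of the other tested genes of the target signature, the Hippo regulators and the TEAD and VGLL factors, 1 row per gene, with called genes filled and the others open. GADD45A, at 2.89, and IGFBP3, at -2.23, are the outermost points of the signature.

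In the families of the 3 higher genes, NOV, or CCN3, the third CCN gene with a clear level, also rose. It had 8.77, 8.91 and 8.89 CPM in DMSO, 13.5, 13.5 and 14.7 CPM at 5 µM and 15.5, 15.8 and 15.8 CPM at 10 µM. Its log2 fold change was 0.65 at 5 µM (SE 0.09, adjusted p = 0.00150) and 0.83 at 10 µM (SE 0.09, adjusted p = 8.76e-05). NOV was thus called higher at both doses, beside 2.14% of all genes at 5 µM and 8.57% at 10 µM. Of the other CCN genes, WISP3 was tested and not called (log2 fold change at 10 µM -0.39, and -0.89 and called lower without 10 µM replicate 1), and WISP1 and WISP2 did not pass the filter. ANKRD2 and ANKRD23, the relatives of ANKRD1, were tested and not called at either dose.

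Over the 9 libraries and 13677 other genes whose mean reached 1 CPM, the genes whose log2 CPM followed CTGF most closely were STC2, SNAPC1, DYNC1LI1, ASNS and SARS, with Pearson r from 0.989 to 0.994. Those closest to CYR61 were PPP1R15A, JUN, FOS, GADD45B and DNAJC25, with r from 0.992 to 0.994. At 10 µM these genes had log2 fold changes between 0.42 (DYNC1LI1) and 1.10 (ASNS) for CTGF and between 0.89 (DNAJC25) and 2.03 (FOS) for CYR61. CTGF and CYR61 had an r of 0.99 with each other, and CTGF had an r of -0.96 with WWTR1. These values describe 9 libraries in 3 dose groups, and any gene that changes in steps with dose will have a high r.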

How the data were processed

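RNA-seq libraries were made from A375 cells after 24 h in DMSO or TP-472, with 3 per group. The values deposited by the authors are RSEM expected counts by gene symbol, in 1 table of 9 columns, without scaling for depth. The submitters' processing notes name RSEM 1.2.15, Bowtie2 2.1.0 and the build hg38. The libraries were strand-specific (dUTP), but no source used here gives the annotation, the strand setting of the counting or filters. The labels describe oligo-dT purification, while the design text describes depletion of ribosomal RNA.

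Expected counts were rounded to whole numbers and tested in edgeR 4.0.16 (R 4.3.3) with TMM factors (0.957 to 1.029), filterByExpr and the quasi-likelihood F test on a fit of all 3 groups. P-values were adjusted by the Benjamini-Hochberg method over the 16417 genes tested. Standard errors were taken as |log2 fold change| / √F. The series describes the replicates as biological, and p-values measure the spread between these libraries. The test recovered most of the large changes put into counts simulated from these libraries under the count model that the test assumes. Changes near the fold limit and a library with a length trend were not simulated. DESeq2 1.42.0, another scaling, 2 other filters, a replicate block, fits of the compared groups alone, no fold limit and each library left out were tried as alternatives. Leaving out 10 µM replicate 1 for the other lists was chosen after seeing the data. Coordinates, lengths and overlaps are from GENCODE release 29 (GRCh38), in which 15273 tested genes had a length. Figures were drawn with Python 3.11.15 and matplotlib 3.10.9.

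The 10 genes and the other lists were chosen with earlier results of these data known. The other lists were the 22-gene target signature, TEAD and VGLL factors, Hippo kinases and regulators, CCN genes, relatives of ANKRD1 and 2 marker lists, all written from general knowledge. Genes named from them are the TEAD and VGLL genes and up to 6 genes per list with the largest changes among those called at 10 µM with a mean of at least 1 CPM. A further rule named the 5 genes closest to CTGF and to CYR61 by Pearson r on log2(CPM + 0.5). STK3, STK4, LATS1, FAT1, WISP3, ANKRD2 and ANKRD23 lie outside these rules and were named with their values known. The same holds for TAOK3, WTIP, MOB1B, WWC2, FRMD6, ASAP1, CRIM1, TGFB2, FJX1 and CCDC80, named below for a change of sign without 10 µM replicate 1.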

Additional observations from a re-analysis of the deposited data

How the results depend on the processing

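The calls at 10 µM against DMSO (CTGF, CYR61 and ANKRD1 higher, WWTR1 and AMOTL1 lower) and that of ANKRD1 at 5 µM were made under every alternative tried, including the replicate block, which gave 1, 5 and 4 of the 10 genes called at 5 µM, at 10 µM and between the doses, as without it. Over all genes the block gave 687, 3005 and 556 calls against 799, 3137 and 658. Same-numbered libraries did not deviate together (correlations from -0.07 to 0.10), so the numbers were not taken to pair them. With no fold limit, 3 of the 10 genes passed at 5 µM (against 1), and over all genes 1676 passed at 5 µM, 5634 at 10 µM and 1379 between the doses. Fits of only the compared groups called 1320 genes at 5 µM and 266 between the doses. With each library left out in turn, the genes called numbered 480 to 1241 at 5 µM (527, 480 and 488 without DMSO replicates 1, 2 and 3, and 1241 without 10 µM replicate 1) and 379 to 871 between the doses (390, 379 and 389 without 5 µM replicates 1, 2 and 3). The log2 fold change of AMOTL2 changed sign, from -0.05 to 0.02 at 5 µM and from -0.01 to 0.17 at 10 µM, as did that of LATS2 between the doses, from -0.04 to 0.31. Without 10 µM replicate 1, an alternative added after seeing the data, the log2 fold change at 10 µM against DMSO changed sign for TEAD4 (-0.06), STK4 (0.11), LATS1 (0.04), TAOK3 (-0.06), WTIP (-0.16) and ANKRD23 (0.25). Between the doses it did so for VGLL3 (0.04), STK4 (0.03), MOB1B (0.21), WWC2 (0.05), FRMD6 (0.10), TAOK3 (-0.14), WTIP (-0.03), FAT1 (0.25), ASAP1 (0.08), CRIM1 (0.04), TGFB2 (-0.02), ANKRD23 (0.05), FJX1 and CCDC80 (both 0.00). The causes of these shifts were not tested. Among 270 values of the 10 genes with a library left out, 263 kept direction and call, as did 201 of 210 under the other settings, where 4 calls were lost (WWTR1 between the doses) and 5 values (CTGF, WWTR1, YAP1 and AJUBA) passed only because the fold limit was dropped. Counts of the other lists that changed by more than 1.5 times without 10 µM replicate 1 were those of CCN genes, 2 against 1 at 10 µM and 1 against 0 between the doses, and of Hippo regulators between the doses, 0 against 2.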
